A study of Mus musculus with 12 samples.

Results

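Tumour necrosis factor (TNF) and Fas signalling was followed through 10 genes in whole mouse retina: the ligand gene Tnf, the death domain receptor genes Tnfrsf1a, Fas and Tnfrsf10b, the receptor genes Tnfrsf1b and Tnfrsf12a, and the downstream genes Casp8, Ripk1, Ripk3 and Mlkl. They were taken by symbol, and all 10 were found among the 25124 genes listed in each of the 2 expression tables. The study asked how raised intraocular pressure (IOP) and age change the retina, with bulk RNA-seq of 12 libraries in 6 groups of 2. All animals were wild-type C57BL/6J mice, and the pressure of 1 eye was raised to 30 mmHg for 1 h while the other eye was left untreated as the control. The single-IOP table holds untreated and treated eyes at 3 months of age (3mo control, 3mo IOP) and at 18 months (18mo control, 18mo IOP), collected 2 days after 1 elevation. In the repeated-IOP table the groups were 4xIOP and 4xIOP control, from animals that had 4 elevations, 1 every 2 weeks from an age of 3 months, and gave their retinas 2 days after the last. The controls here are untreated contralateral eyes, and the cannulated eyes at normal pressure that the study examined at a later day are not among these libraries, so the raised pressure and the procedure that raises it cannot be told apart. The labels number the libraries of a group as replicates without naming the animals, so the p-values measure only the spread between these libraries.

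TNF is a cytokine released mainly by microglia and other myeloid cells, and it binds the receptors encoded by Tnfrsf1a and Tnfrsf1b. Receptors with a death domain (TNFR1, Fas and DR5) can assemble complexes around the kinase RIPK1 and the protease caspase-8. Depending on caspase-8 activity, these complexes lead to inflammatory gene expression, to apoptosis, or to necroptosis, in which RIPK3 phosphorylates MLKL and MLKL breaks the plasma membrane. In the retina this pathway has been studied in models of ganglion cell loss and glial activation, among others.

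Promoters are shown for the 5 members that were called in at least 1 comparison, since the tests turn on them. The Casp8 window precedes the transcript listed in the single-IOP table, whereas its call was made in the repeated-IOP table on NM_009812, which starts at 58795374 and whose promoter is not shown. Each sequence is the 250 bases before the transcript start, 5′ to 3′ on the gene's strand, from RefSeq on GRCm38.p6. The windows are chr17:35202008-35202257 (minus strand) for Tnf, chr6:125349473-125349722 (plus) for Tnfrsf1a, chr19:34290409-34290658 (plus) for Fas, chr4:145246871-145247120 (minus) for Tnfrsf1b and chr1:58802252-58802501 (plus) for Casp8. Capitals mark matches to an interferon regulatory factor (IRF) core, AANNGAAA, a STAT site, TTCNNNGAA, and an AP-1 site, TGANTCA, searched on both strands.
Tnf: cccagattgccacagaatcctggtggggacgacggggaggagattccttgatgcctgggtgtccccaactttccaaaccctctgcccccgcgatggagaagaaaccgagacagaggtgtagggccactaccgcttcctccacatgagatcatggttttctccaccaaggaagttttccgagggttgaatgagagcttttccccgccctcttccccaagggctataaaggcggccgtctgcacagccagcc
Tnfrsf1a: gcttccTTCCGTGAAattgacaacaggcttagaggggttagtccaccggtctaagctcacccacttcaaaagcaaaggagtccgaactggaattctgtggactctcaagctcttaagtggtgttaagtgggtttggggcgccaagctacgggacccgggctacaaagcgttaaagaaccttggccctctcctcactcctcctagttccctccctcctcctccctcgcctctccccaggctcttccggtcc
Fas: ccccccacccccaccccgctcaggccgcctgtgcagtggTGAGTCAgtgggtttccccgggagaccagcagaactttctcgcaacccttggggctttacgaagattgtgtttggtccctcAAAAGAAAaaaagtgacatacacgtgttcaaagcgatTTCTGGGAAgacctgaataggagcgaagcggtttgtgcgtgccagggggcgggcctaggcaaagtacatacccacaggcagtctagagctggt
Tnfrsf1b: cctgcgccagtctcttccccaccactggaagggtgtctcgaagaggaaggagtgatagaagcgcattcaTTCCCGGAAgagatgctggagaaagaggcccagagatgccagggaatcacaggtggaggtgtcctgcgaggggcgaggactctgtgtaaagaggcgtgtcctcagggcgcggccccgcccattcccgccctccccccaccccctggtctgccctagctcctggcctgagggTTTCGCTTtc
Casp8: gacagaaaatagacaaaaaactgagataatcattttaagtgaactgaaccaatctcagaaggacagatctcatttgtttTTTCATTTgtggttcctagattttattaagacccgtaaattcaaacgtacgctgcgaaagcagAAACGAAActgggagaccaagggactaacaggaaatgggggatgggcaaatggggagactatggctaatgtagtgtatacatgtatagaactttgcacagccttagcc

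An IRF core lay in 3 of the 9 member promoters in the RefSeq table, those of Casp8 (positions -171 and -108 from the start), Tnfrsf1b (-10) and Fas (-130), against 21.3% of all 32851 promoters in windows of the same length. A STAT site lay in 4 of the 9, in Tnfrsf1b (-181), Tnfrsf1a (-244), Ripk1 (-108 and -11) and Fas (-93), against 7.02% of all promoters. Fas also held an AP-1 site at -211, a motif found in 6.75% of all promoters. The NF-kB consensus, found in 7.25% of all promoters, matched none of these 9 windows, which says only that its letters were not in these 250 bases. No 2 marked matches overlapped in the printed sequences, and a match is a description of the letters and not evidence that a factor binds there.

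Values are FPKM, that is fragments scaled to transcript length and to the tags of the library, as the authors deposited them. Depth, recovered from the steps of the FPKM values, lay between 39766233 and 59455055 tags per library, and 3 reads were set as the floor of measurement. The defining rod genes were present in every library, with a summed level of 10 rod markers between 5856 and 28050 FPKM. Each of the 8 single-IOP libraries held Xist (47.6 to 172 FPKM) and had the Y-linked Ddx3y, Eif2s3y and Kdm5d at 0, while the 4 repeated-IOP libraries had Xist at no more than 0.005 FPKM and Ddx3y between 8.80 and 12.7 FPKM. Retinal pigment epithelium markers (10 genes) summed to between 217 and 598 FPKM in the 3-month single-IOP libraries and to between 2.57 and 12.5 FPKM in the 18-month ones. Levels across the 2 tables therefore also compare animals that differ in the expression of sex-linked genes and values that were normalized separately, and tests were run only within a table.

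Tests covered genes averaging 0.5 FPKM or more over a table's libraries, that is 13731 genes of the single-IOP table and 13718 of the repeated-IOP table. Of the members, 7 of 10 were tested in the first (not Tnfrsf10b, Ripk3 and Mlkl) and 6 of 10 in the second (also not Tnf). A fold change is the difference of log2(FPKM + 0.5), which understates the change of low genes, and a gene was called at a limma Benjamini-Hochberg adjusted p of at most 0.05 over all genes tested together with a log2 fold change of 1 or more in either direction. Median-of-ratios scaling lowered the median log2 fold change of all genes tested from 0.16 to 0.0096 with age, from 0.13 to -0.04 for 3mo IOP, from 0.09 to -0.02 for 18mo IOP and from 0.10 to -0.01 for 4xIOP. Tnf and Tnfrsf1b passed the filter of the single-IOP table through the groups in which they were high. Fas averaged 0.276 FPKM in 3mo control, under the filter, and passed through the other groups of that table, where it was higher. In the repeated-IOP table Tnfrsf1b, Fas and Casp8 averaged 0.143, 0.306 and 0.195 FPKM in control and passed through 4xIOP, where they were high. Genes that pass in this way had to differ, so the counts of called members, and of called genes in the lists that hold such genes, are not read against the share over all genes.

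**Figure D1:**
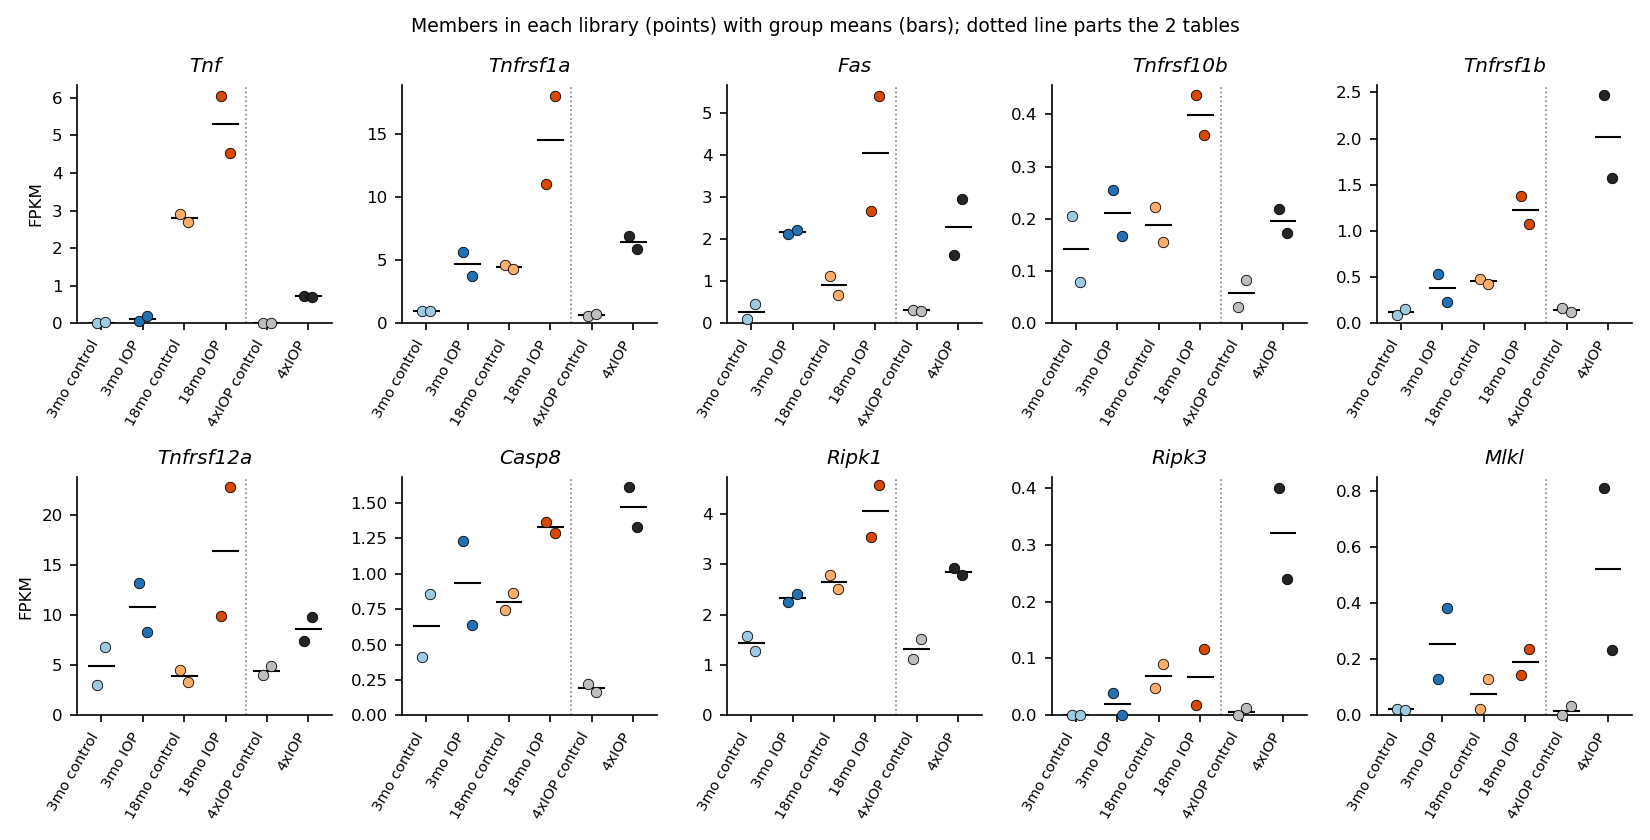
Each panel plots FPKM (linear axis from 0) of 1 member in the 12 libraries, with a point per library and a bar at the mean of the 2 libraries of a group. The dotted line separates the tables; Tnf sits between 2.697 and 6.05 FPKM in the 4 libraries from 18-month-old animals and at or below 0.180 in the 4 from 3-month-old animals of the same table.

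Tnf (NM_001278601, chromosome 17, 35199367 to 35202007, minus strand of mm10), the ligand, was nearly absent from young untreated retinas and present in old ones. In 3mo control it measured 0 and 0.026 FPKM, which are 0 and 2 reads, and in 18mo control 2.91 and 2.697 FPKM, which are 204 and 202 reads. With 1 elevation it was 0.069 and 0.180 FPKM at 3 months and 6.05 and 4.54 FPKM at 18 months. In 4xIOP control both libraries were at 0 reads, and the 4xIOP libraries held 0.723 and 0.710 FPKM, from 65 and 48 reads. Treated libraries were above their controls without overlap in all 3 IOP comparisons, and both 18-month groups lay above both 3-month groups of the same table.

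Tnfrsf1a (NM_011609, chromosome 6, 125349723 to 125362483, plus strand) encodes TNFR1, the death domain receptor found on most cells. It measured 0.966 and 0.938 FPKM in untreated eyes at 3 months and 4.59 and 4.29 at 18 months, and 5.65 and 3.77 FPKM after 1 elevation at 3 months and 11.1 and 18.0 at 18 months. In the repeated-IOP table it measured 0.587 and 0.706 FPKM in 4xIOP control and 6.92 and 5.87 in 4xIOP. The 3mo IOP libraries lay on either side of the 18mo control libraries, so these neighbouring groups were not separated, while 3mo control was the lowest and 18mo IOP the highest group of its table.

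Fas (NM_007987, chromosome 19, 34290659 to 34327770, plus strand) encodes the receptor of Fas ligand. It measured 0.098 and 0.454 FPKM in untreated eyes at 3 months and 1.13 and 0.681 at 18 months, and 2.13 and 2.23 FPKM after 1 elevation at 3 months and 2.68 and 5.42 at 18 months. The 4xIOP control libraries held 0.324 and 0.288 FPKM and the 4xIOP libraries 1.62 and 2.97. The order of the groups in the single-IOP table was 3mo control, 18mo control, 3mo IOP and 18mo IOP, with no overlap between neighbours. Tnfrsf10b (NM_020275, chromosome 14, 69767472 to 69784411, plus strand), which encodes the TRAIL receptor DR5, stayed between 0.079 and 0.437 FPKM in the single-IOP table and measured 0.032 and 0.082 FPKM in 4xIOP control and 0.219 and 0.172 in 4xIOP, below the level at which genes were tested.

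Tnfrsf1b (NM_011610, chromosome 4, 145212368 to 145246870, minus strand) encodes TNFR2, which lacks a death domain and is prominent on microglia and other immune cells. It measured 0.088 and 0.150 FPKM in untreated eyes at 3 months and 0.484 and 0.423 at 18 months, and 0.533 and 0.235 FPKM after 1 elevation at 3 months and 1.37 and 1.07 at 18 months. The 4xIOP control libraries held 0.164 and 0.121 FPKM and the 4xIOP libraries 2.47 and 1.57. Treated libraries exceeded their controls in each of the 3 settings, and 3mo IOP overlapped 18mo control. Tnfrsf12a (NM_001161746, chromosome 17, 23675445 to 23677449, minus strand) encodes Fn14, the receptor of TWEAK, and was the member with the highest level in most libraries. It measured 3.07 and 6.81 FPKM in untreated eyes at 3 months and 4.51 and 3.37 at 18 months, and 13.3 and 8.31 FPKM after 1 elevation at 3 months and 9.92 and 22.9 at 18 months. In the repeated-IOP table it held 4.03 and 4.92 FPKM in control and 7.41 and 9.85 in 4xIOP. Here the IOP groups were above their controls at every setting, and the control groups of the 2 ages overlapped. Its transcript overlaps Hcfc1r1 on the opposite strand, and the authors counted reads by strand.

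Casp8 (NM_001080126, chromosome 1, 58802502 to 58847503, plus strand) encodes caspase-8, the protease that starts apoptosis and cleaves RIPK1 and RIPK3. It measured 0.411 and 0.855 FPKM in untreated eyes at 3 months and 0.741 and 0.863 at 18 months, and 1.23 and 0.640 FPKM after 1 elevation at 3 months and 1.37 and 1.29 at 18 months, and 18mo IOP alone stood above the other groups. In the repeated-IOP table it went from 0.225 and 0.165 FPKM in control to 1.61 and 1.33 in 4xIOP. The tables hold different Casp8 transcripts, of 2401 bases in the single-IOP table (the coordinates given) and 2574 in the other, so its levels are not set side by side. Ripk1 (NM_009068, chromosome 13, 34002874 to 34035170, plus strand), the kinase shared by the survival and death complexes, measured 1.58 and 1.29 FPKM in untreated eyes at 3 months and 2.78 and 2.52 at 18 months, and 2.25 and 2.42 FPKM after 1 elevation at 3 months and 3.54 and 4.57 at 18 months. The repeated-IOP control libraries held 1.12 and 1.52 FPKM and the 4xIOP libraries 2.92 and 2.79. The groups of the single-IOP table went from 3mo control at the bottom through 3mo IOP and then 18mo control to 18mo IOP at the top, without overlap between neighbours.

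Ripk3 (NM_019955, chromosome 14, 55784995 to 55788857, minus strand) and Mlkl (NM_029005, chromosome 8, 111311798 to 111338205, minus strand), the kinase and the membrane effector of necroptosis, stayed below 1 FPKM in every library. Ripk3 was at 0 reads in both 3mo control libraries and at 4 and 0 reads in 3mo IOP. It held 4 and 8 reads in 18mo control and 2 and 13 in 18mo IOP, where the groups overlapped. In the repeated-IOP table it held 0 and 1 read in control and 42 and 19 reads in 4xIOP, which are 0.399 and 0.240 FPKM. In no other group did a library hold more than 13 reads of Ripk3. Mlkl held 2 reads in each 3mo control library, 14 and 32 in 3mo IOP, 2 and 12 in 18mo control and 16 and 28 in 18mo IOP. It held 0 and 3 reads in 4xIOP control and 92 and 20 reads (0.812 and 0.235 FPKM) in 4xIOP, where the table holds another transcript of 2017 bases. Both genes were above their controls in both 4xIOP libraries, and Mlkl also after 1 elevation at either age.

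Age was compared in untreated eyes, as 18mo control against 3mo control. Tnf and Tnfrsf1a, 2 of the 7 members tested, were called higher, and Tnf was tested only for its level at 18 months. Of all genes tested, 11.6% were called higher in this comparison. Tnf rose by 2.69 ± 0.221 on the log2 scale (SE, n = 2 and 2, limma adjusted p = 0.00265), and the 406 reads against 2 give a rate ratio of 200 with a 95% counting interval of 55 to 1657. Tnfrsf1a rose by 1.77 ± 0.265 (limma adjusted p = 0.00535), or 4.66-fold in mean FPKM. A block by replicate number ended the Tnfrsf1a call (limma adjusted p = 0.107). Both calls were kept whichever single library was left out.

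Ripk1 differed by 0.71 ± 0.197 with a limma adjusted p of 0.0217, which is under the fold required. Fas (0.88, limma adjusted p = 0.0713), Tnfrsf1b (0.62, limma adjusted p = 0.0739) and Casp8 (0.23, limma adjusted p = 0.533) did not pass the test. With the trend with transcript length removed, Fas was called (1.26, limma adjusted p = 0.0133) and Tnfrsf1b was not (0.28, 0.432). Voom on the recovered reads called Tnfrsf1b (1.77, limma adjusted p = 0.0334) and not Fas (1.80, 0.128). Both averaged under 0.5 FPKM in 3mo control. Tnfrsf12a gave -0.21 ± 0.453 (limma adjusted p = 0.719), and removing the trend with transcript length turned this to 0.67. Ripk3, with 12 reads against 0, was at least 1.94-fold higher against a floor of 3 reads per library. Across the members, 6 of 10 were higher in both 18-month libraries than in both 3-month libraries, and 36.5% of the genes above 0 in a library were.

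Other measures moved with the age comparison. Microglia and leukocyte markers (16 genes) summed to 43.8 and 74.1 FPKM in 3mo control and to 141 and 152 in 18mo control, and 9 of 15 tested were called higher, 2 of them tested only through their level in other groups. Endothelium and pericyte markers (10 genes) summed to 20.4 and 16.8 FPKM in 3mo control and to 87.4 and 94.3 in 18mo control. Both lists were higher in the older untreated eyes. Pigment epithelium markers went the other way, from 222 and 217 to 12.5 and 3.47 FPKM, with 9 of 9 tested called lower, 4 of them tested only through the 3-month level. Retinal ganglion cell markers (11 genes) summed to 365 and 671 FPKM in 3mo control and to 62.6 and 118 in 18mo control, with 6 of 10 tested called lower, and Muller glia and astrocyte markers (11 genes) to 796 and 1187 against 2158 and 1748, with 5 of 11 called higher. These lists cover neurons, glia, vessels and the layer behind the retina. The immediate early genes Fos, Fosb, Junb and Ier2 summed to 13.3 and 11.7 FPKM in 3mo control and to 362 and 183 in 18mo control. Their part in the Tnf and Tnfrsf1a differences was not tested, and in whole retina more cells of a type and more RNA per cell cannot be told apart.

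**Figure D2:**
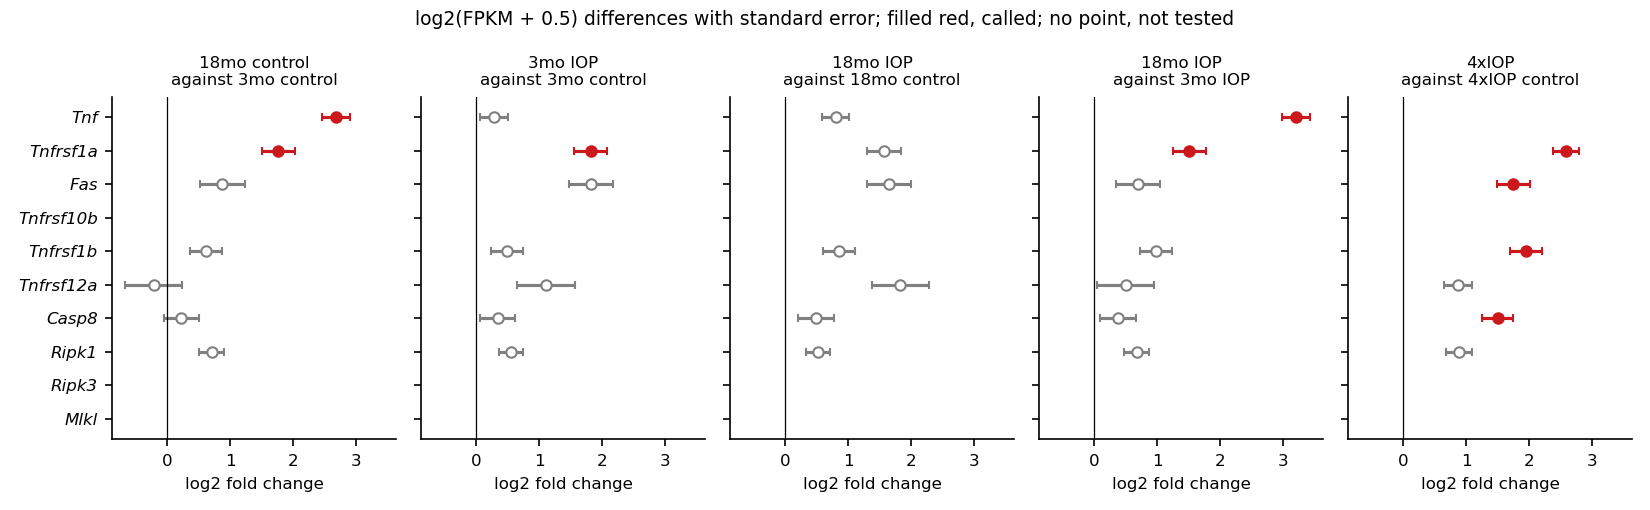
Each panel shows 1 comparison with the log2(FPKM + 0.5) fold change of the tested members (points) and its standard error (bars), filled red where called. The called members are Tnf and Tnfrsf1a with age and between 18mo IOP and 3mo IOP, Tnfrsf1a in 3mo IOP, and Tnfrsf1a, Fas, Tnfrsf1b and Casp8 in 4xIOP.

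A single elevation at 3 months was compared as 3mo IOP against 3mo control. Tnfrsf1a was the 1 member called higher, where 0.568% of all genes tested were called higher. It rose by 1.82 ± 0.265 on the log2 scale (limma adjusted p = 0.0325), or 4.95-fold in mean FPKM. Fas gave a difference of the same size, 1.83 ± 0.352, with a limma adjusted p of 0.079, and went from 38 reads in the control libraries to 308. Tnfrsf12a (1.11, limma adjusted p = 0.532), Ripk1 (0.55, limma adjusted p = 0.41), Tnfrsf1b (0.50, limma adjusted p = 0.703), Casp8 (0.34, limma adjusted p = 0.931) and Tnf (0.28, limma adjusted p = 0.922) did not pass.

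Mlkl was not tested at this level, and its 46 reads against 4 give a rate ratio of 10.7 with a 95% counting interval of 3.91 to 40.9. For Tnf, 18 reads against 2 give 8.37 (2.00 to 74.4). These intervals cover counting error only. Higher values without overlap were found in 7 of 10 members and in 25.9% of the genes above 0. The Tnfrsf1a call was lost without 3mo control replicate 1 (limma adjusted p = 0.149), 3mo IOP replicate 1 (0.301) or replicate 2 (0.0766), or 18mo control replicate 1 (0.07) or replicate 2 (0.0696), and its log2 fold change stayed between 1.56 and 2.08. Fas was called as well without 3mo control replicate 2 (limma adjusted p = 0.0488), 18mo IOP replicate 1 (0.0377) or 18mo IOP replicate 2 (0.0382). With scaling by median-of-ratios size factors (1.68, limma adjusted p = 0.0648) or quantiles (1.67, 0.0675) Tnfrsf1a was not called, nor was any other member. Fas averaged under 0.5 FPKM in 3mo control and was tested here only through its level in other groups, so its calls add nothing to its reads.

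Markers of other cells are given beside this comparison. Microglia and leukocyte markers summed to 258 and 148 FPKM in 3mo IOP, against 43.8 and 74.1 in the control, with 0 of 15 called and 10 at an unadjusted p under 0.05. Endothelium and pericyte markers went from 20.4 and 16.8 to 68.3 and 39.2 FPKM, with Acta2 alone called higher and a median log2 fold change of 0.24, and pigment epithelium markers were at 222 and 217 against 598 and 244 FPKM, with 0 of 9 called, 4 at an unadjusted p under 0.05 and a median log2 fold change of -0.05, so a few abundant genes carried both sums. Of 11 Muller glia and astrocyte markers only Gfap was called, from 2.13 and 2.10 to 24.965 and 31.3 FPKM. Immediate early genes summed to 13.3 and 11.7 FPKM in the control and to 39.9 and 24.3 in 3mo IOP. Their part in the Tnfrsf1a difference was not tested.

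A single elevation at 18 months, 18mo IOP against 18mo control, gave 0 called members, and 0.117% of all genes tested were called higher. The eyes of an animal were not paired in this fit, since the labels do not name the animals. A fit that paired opposite-numbered libraries, chosen after seeing the data, did call members. The differences were 1.82 ± 0.453 for Tnfrsf12a, 1.64 ± 0.352 for Fas and 1.57 ± 0.265 for Tnfrsf1a, with limma adjusted p of 0.175, 0.128 and 0.0933. Tnfrsf1b gave 0.85, Tnf 0.80, Ripk1 0.52 and Casp8 0.49, with limma adjusted p between 0.214 and 0.794. The unadjusted limma p was under 0.05 for 6 of the 7 members tested, all but Casp8, and for 9.45% of all genes tested. Voom on the recovered reads also called 0 members here. Tnf went from 406 reads to 964, a rate ratio of 1.88 with a 95% counting interval of 1.67 to 2.12.

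Each member other than Ripk3 was higher in both 18mo IOP libraries than in both 18mo control libraries, that is 9 of 10, where 30.0% of the genes above 0 were. Without 18mo IOP replicate 1, 2 members were called, Tnfrsf1a with 1.91 (limma adjusted p = 0.0239) and Fas with 2.09 (limma adjusted p = 0.0424), in a fit that assumes the lone library varies like the other groups. Microglia and leukocyte markers summed to 456 and 245 FPKM in 18mo IOP, above their controls, with 0 of 15 called and 10 at an unadjusted p under 0.05. Muller glia and astrocyte markers went from 2158 and 1748 to 3270 and 3200 FPKM, with 1 of 11 called, Gfap, and 8 at an unadjusted p under 0.05. Rod markers went from 20443 and 18187 to 13821 and 16295 FPKM with 0 of 10 called, and blood markers (5 genes) from 166 and 426 to 54.3 and 44.3 FPKM with 0 of 5 called. Immediate early genes summed to 362 and 183 FPKM in the control and to 416 and 860 in 18mo IOP. Their part in the members' values was not tested.

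The interaction asked whether the response to 1 elevation differed between the ages. No member passed, with 0 called and 0% of all genes tested called by limma, while 218 of 13731 genes had an unadjusted p under 0.05. The difference of the responses was 0.72 ± 0.641 for Tnfrsf12a, 0.52 ± 0.313 for Tnf and 0.35 ± 0.359 for Tnfrsf1b, and it lay between -0.25 and 0.15 for the other 4 members, each with a limma adjusted p of 1. The direction turned for Tnf with a pseudocount of 0.1 (-0.073) and with voom (-1.88), and for Tnfrsf1b with voom (-0.15), so their signs depend on the fit. Voom also gave -1.08 for Fas and -0.54 for Tnfrsf1a, and 0.19 for Casp8 and -0.02 for Ripk1. Voom called 0 genes as well. These p-values do not show that the responses were alike.

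The treated groups of the 2 ages were compared as 18mo IOP against 3mo IOP. Tnf and Tnfrsf1a were again the 2 members called higher, where 10.2% of all genes tested were and Tnf was tested only for its level at 18 months. Tnf rose by 3.21 ± 0.221 (limma adjusted p = 0.000999), from 18 reads to 964, and Tnfrsf1a by 1.51 ± 0.265 (limma adjusted p = 0.00696). Tnfrsf1b (0.98, limma adjusted p = 0.0193) and Ripk1 (0.68, limma adjusted p = 0.0273) were under the fold required, and Fas (0.69), Tnfrsf12a (0.50) and Casp8 (0.38) did not pass. With the trend with transcript length removed, Fas (1.109, limma adjusted p = 0.0246) and Tnfrsf12a (1.405, 0.0152) were called. Tnfrsf1b (0.59), Ripk1 (0.34) and Casp8 (0.29) were then smaller. Higher values without overlap were found in 7 of 10 members and 34.5% of the genes above 0. The Tnfrsf1a call was lost without 3mo IOP replicate 2 (limma adjusted p = 0.0564).

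Immediate early genes summed to 39.9 and 24.3 FPKM in 3mo IOP and to 416 and 860 FPKM in 18mo IOP, and pigment epithelium markers to 598 and 244 against 5.50 and 2.57 FPKM. Ganglion cell markers summed to 492 and 562 FPKM in 3mo IOP and to 135 and 61.8 in 18mo IOP, with 8 of 10 tested called lower. Of these 8, 1 (Pou4f2) averaged under 0.5 FPKM in 18mo IOP and was tested only through its 3-month level. Muller glia and astrocyte markers (1372 and 980 against 3270 and 3200 FPKM) had 7 of 11 called higher, endothelium and pericyte markers (68.3 and 39.2 against 127 and 112 FPKM) 8 of 9 higher and 1 lower, and microglia and leukocyte markers 5 of 15 higher, with 2 and 1 of the higher ones averaging under 0.5 FPKM in 3mo IOP. Their part in these differences was not tested. The 3mo IOP group serves in this comparison and in the one against its own control, and the 3mo control group in the age comparison and in that one, so the comparisons are not independent of each other.

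Repeated elevation, 4xIOP against 4xIOP control, was compared last. Tnfrsf1a, Tnfrsf1b, Fas and Casp8, 4 of the 6 members tested, were called higher, where 5.45% of all genes tested were. Of these 4 only Tnfrsf1a averaged at least 0.5 FPKM in the control libraries. Tnfrsf1a rose by 2.59 ± 0.200 (limma adjusted p = 2.66e-06), or 9.90-fold in mean FPKM. Tnfrsf1b rose by 1.95 ± 0.258 (limma adjusted p = 0.000239), or 14.2-fold. Fas rose by 1.75 ± 0.266 (limma adjusted p = 0.000728), or 7.49-fold, and Casp8 by 1.503 ± 0.247 (limma adjusted p = 0.00138), or 7.55-fold. The 4 calls were kept whichever single library was left out, and Ripk1 was called as well without 4xIOP control replicate 2.

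Ripk1 (0.89 ± 0.207, limma adjusted p = 0.0158) and Tnfrsf12a (0.87 ± 0.218, limma adjusted p = 0.0248) were under the fold required. Tnf, with 113 reads against 0, was at least 15.7-fold higher against a floor of 3 reads per library. Ripk3 had 61 reads against 1, a rate ratio of 50.9 with a 95% counting interval of 8.80 to 2042, and Mlkl 112 against 3, a ratio of 31.1 (10.4 to 153). In a voom fit of the recovered reads with the filter lowered to 0.1 FPKM, chosen after seeing the data, Tnf (limma adjusted p = 0.00613) and Ripk3 (0.0335) were called, and Mlkl (0.0983) and Tnfrsf10b (0.224) were not. With the same filter on log2(FPKM + 0.5), Tnf was called (limma adjusted p = 0.00273), while Ripk3 (0.0719), Mlkl (0.0938) and Tnfrsf10b (0.482) were not, so the Ripk3 call depends on the fit. Each of these 4 genes passed the lowered filter only through 4xIOP and so had to differ, and the calls add nothing to the reads given. All 10 members were higher without overlap, where 28.1% of the genes above 0 were.

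Microglia and leukocyte markers summed to 19.0 and 18.5 FPKM in 4xIOP control and to 363 and 343 in 4xIOP, and 15 of 16 were called higher, 6 of them tested only through 4xIOP. Lens markers (11 genes) went from 5.23 and 1.00 to 57.2 and 121 FPKM, with 9 of 9 tested called higher, of which 7 averaged under 0.5 FPKM in control and so were tested only through 4xIOP, and pigment epithelium markers from 30.8 and 41.0 to 3.95 and 7.92 FPKM. Rod markers summed to 12244 and 12894 FPKM in control and to 5856 and 8847 in 4xIOP, with 0 of 10 called, 3 at an unadjusted p under 0.05 and a median log2 fold change of -0.89. Immediate early genes summed to 17.4 and 22.8 FPKM in control and to 31.3 and 27.9 in 4xIOP. Endothelium and pericyte markers went from 39.5 and 43.8 to 71.1 and 76.9 FPKM, with Kdr called of 8 tested, and of 11 Muller glia and astrocyte markers Gfap and Vim were called higher while the sum went from 1005 and 1098 to 1082 and 1122 FPKM. The part of these cell types in the members' values was not tested.

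**Figure D3:**
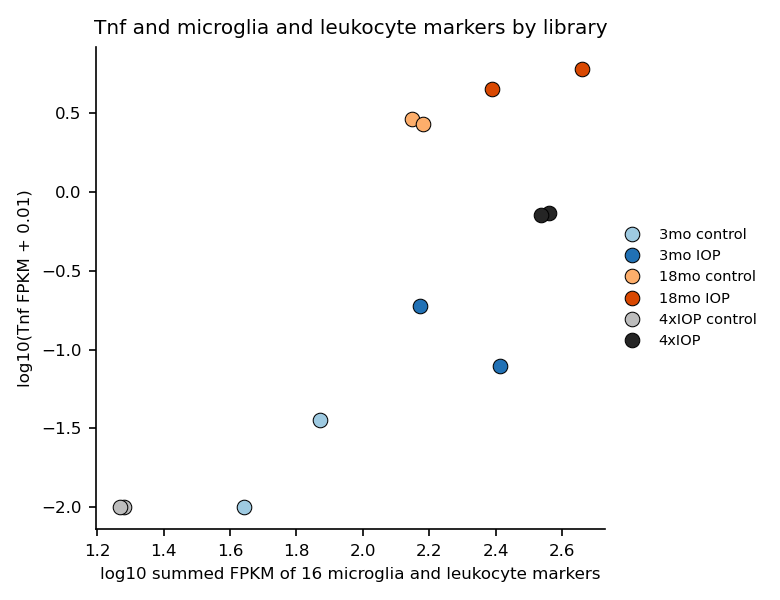
Each point is a library, with the log10 of the summed FPKM of 16 microglia and leukocyte markers on the x axis and log10(Tnf FPKM + 0.01) on the y axis, coloured by group. The 4xIOP libraries, at marker sums of 363 and 343 FPKM, hold 0.723 and 0.710 FPKM of Tnf, and the 18mo control libraries, at 141 and 152, hold 2.91 and 2.697.

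The plot of Tnf against the markers is a description of 12 libraries from tables normalized separately. The 3mo IOP libraries, at 258 and 148 FPKM of the markers, held at most 0.180 FPKM of Tnf, while the 18mo control libraries, at 141 and 152 FPKM of the markers, held at least 2.697. The summed level does not order these groups for each marker, since 6 of the 16 were higher without overlap in 3mo IOP, among them Lyz2 (71.4 and 18.0 against 10.7 and 4.13 FPKM), and 6 were higher in 18mo control, among them Csf1r (6.63 and 8.30 against 2.53 and 2.04 FPKM). The part of microglia in the Tnf level was not tested. Over the 8 libraries of the single-IOP table, the genes whose log2(FPKM + 0.5) was most like that of Tnfrsf1a were H2-D1 (Pearson r = 0.9935) and H2-L (0.9933), of 12424 genes compared. The entries of these histocompatibility genes are so alike in sequence that their values may not be separate measurements. Over the 4 libraries of the repeated-IOP table the closest genes reached an r of at least 0.9998, namely Acp5 and Icam1 for Tnfrsf1a, Pnpt1 and Hist1h2bl for Fas, and Cd48 and Kazn for Casp8. These values rest on 4 libraries in 2 groups and are a description only.

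Beyond the members, 6 lists of the pathway held 106 genes, of which 75 were tested in the single-IOP table and 71 in the repeated-IOP table. With age 11 were called higher and 3 lower, that is 14.7% and 4.00%. Of all genes tested, 11.6% were called higher and another 11.6% lower. The lists had a median log2 fold change of 0.41, against 0.16 for all genes tested. Among receptors, Ngfr (1.78), the p75 neurotrophin receptor, and Tnfrsf8 (1.53), which encodes CD30, were called higher. Among adaptors and complex I genes, Rnf31 (1.47), which encodes a subunit of the linear ubiquitin ligase, Ikbkb (1.22), an IκB kinase, and Traf5 (1.16) were called higher. Among the brakes on death signalling, Tnip2 (1.46) rose and Cflar (fell by 1.11), which encodes the caspase-8 inhibitor c-FLIP, was called lower.

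Necroptosis partners Glul (1.39), which encodes glutamine synthetase and is also a Muller glia marker, and Trim25 (1.20) were called higher, and Chmp2a (-1.27), a subunit of the membrane repair machinery, lower. In the list of apoptosis execution genes Pmaip1 (1.77), which encodes NOXA, and Bcl2 (1.35) were called higher, Pmaip1 being tested only through its 18-month level, and Cycs (-1.45), which encodes cytochrome c, lower. Between 18mo IOP and 3mo IOP the lists gave 10 called higher and 3 lower, that is 13.3% and 4.00% against 10.2% and 11.6% of all genes tested. The called genes included Nfkbia (1.58), which encodes the NF-kB inhibitor IκBα, Map3k14 (1.11), Pmaip1 (2.14) and Zbp1 (-1.07).

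With 1 elevation at 3 months only Zbp1, a sensor of Z-form nucleic acids that can activate RIPK3, was called among the 75 genes (1.33%, against 0.568% of all genes tested called higher), and it was tested only through its level in the IOP groups. It went from 0.062 and 0.054 FPKM in 3mo control to 2.09 and 4.37 in 3mo IOP (2.67 ± 0.370, limma adjusted p = 0.0325). At 18 months 0 of the 75 were called by limma, 12 had an unadjusted p under 0.05, and voom called 0 genes. In 4xIOP Zbp1 went from 0.032 and 0.122 FPKM to 4.30 and 1.86 (2.55 ± 0.309, limma adjusted p = 0.000111). Flot1 (1.07), a membrane scaffold protein, Ltbr (1.27), the lymphotoxin beta receptor, and Birc3 (1.31), which encodes the ubiquitin ligase cIAP2, were called higher there as well. Zbp1 and Birc3 were tested only through 4xIOP, since they averaged under 0.5 FPKM in control.

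One brake on TNF signalling was called lower in 4xIOP. Tnfaip3, which encodes the ubiquitin-editing enzyme A20, went from 53.5 and 66.0 FPKM in 4xIOP control to 14.8 and 18.4 in 4xIOP (-1.82 ± 0.269, limma adjusted p = 0.000598). It was not called after 1 elevation at either age. At 18 months it was lower without overlap, at 77.4 and 58.8 FPKM in control and 37.5 and 43.9 in 18mo IOP. At 3 months the groups overlapped, with 57.15 and 41.9 FPKM in control and 44.8 and 36.2 in 3mo IOP. Over all 6 lists, 4 of 71 (5.63%) were called higher and 1 (1.41%) lower in 4xIOP, against 5.45% and 0.693% of all genes tested, with a median log2 fold change of 0.15 against 0.10. Other TNF superfamily ligands were mostly too low to test, with 4 of 17 tested in the single-IOP table, 3 in the repeated-IOP table and 0 called in any comparison.

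**Figure D4:**
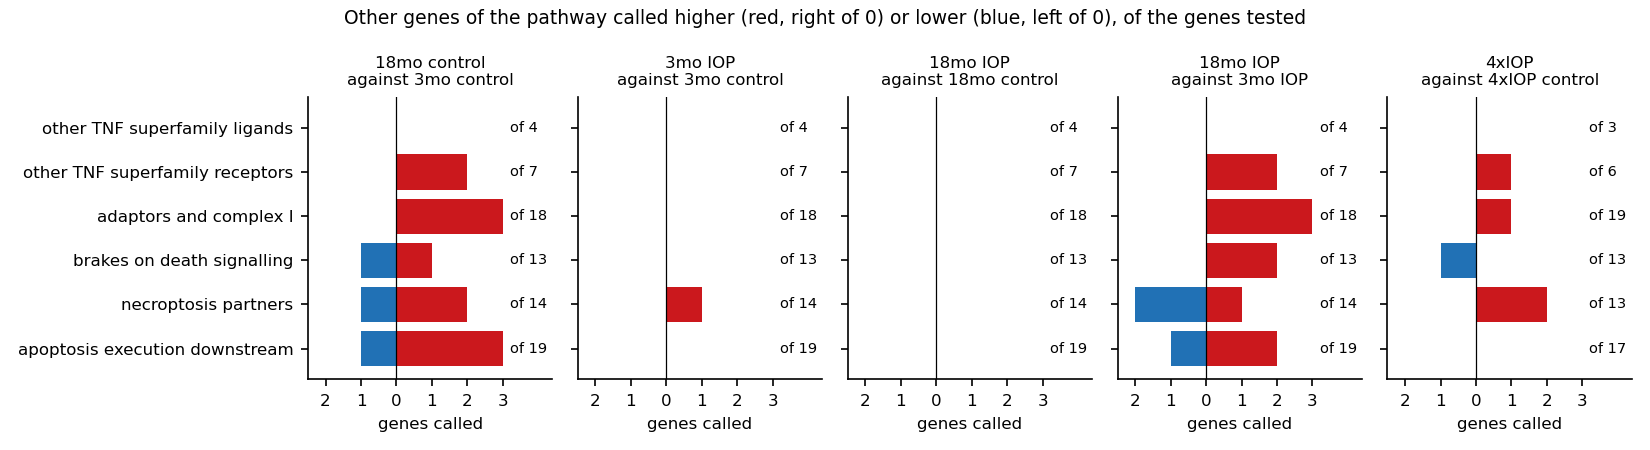
Bars give the number of genes called higher (red, right of 0) or lower (blue, left of 0) in each of the 6 pathway lists, by comparison, with the number tested printed beside them. Age and the comparison of the treated groups hold most of the calls, 11 and 10 higher and 3 lower in each, while the 18mo IOP comparison has none.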

How the data were processed

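Whole retinas were lysed in TRIzol, and stranded poly(A) libraries were sequenced on a NovaSeq. The authors aligned reads to mm10 with STAR (2.7.8a in the submitters' processing notes), counted exon tags on the transcribed strand with HOMER for 1 isoform per locus, and deposited FPKM, in a separate table for each series. DESeq2 1.24.0 served for the authors' tests. Tags per library were recovered here from the FPKM steps, and at least 99.98% of the values checked came to whole reads within the rounding of the deposited digits.

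The log2(FPKM + 0.5) values were fitted with limma 3.58.1 (lmFit, eBayes with trend, R 4.3.3), the 8 single-IOP libraries as 4 groups (4 residual degrees of freedom) and the 4 repeated-IOP libraries alone (2). P-values were adjusted over all genes averaging 0.5 FPKM or more. The steps were tested on simulated data. Groups came from the sample labels, and no library was left out. Named genes are all members and, of each pathway list, the called genes, at most 3 per comparison, by size of change. For members called in an IOP comparison, the 2 genes with the highest Pearson correlation over a table's libraries are named, and those for Tnfrsf1b are not reported here. The members and lists, the immediate early genes included, were chosen with earlier results of these data known. Alternatives were other pseudocounts, filters and scalings, eBayes without a trend, a replicate block, removal of the length trend, calls by adjusted p alone, fits of the compared groups only, voom on recovered reads, and each library left out.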

Additional observations from a re-analysis of the deposited data

How the results depend on the processing

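Of the results for single members under an alternative, 748 kept their direction and their side of the threshold, 20 passed it only there, 14 no longer did and 24 changed sign. With age the number of members called went from 2 to 4 with a pseudocount of 0.1, where Fas and Tnfrsf1b were added, to 3 with the length trend removed (Fas), with voom (Tnfrsf1b) and by the adjusted p alone (Ripk1). Fas and Tnfrsf1b averaged under 0.5 FPKM in 3mo control and were tested with age only through their level in other groups. For 3mo IOP it went from 1 to 0 without a filter, with median-of-ratios or quantile scaling, and with voom with either filter. Between 18mo IOP and 3mo IOP it went from 2 to 4 with the length trend removed (Fas and Tnfrsf12a added), to 4 by the adjusted p alone and to 3 with a pseudocount of 0.1, quantile scaling or voom (Tnfrsf1b). In 4xIOP it went from 4 to 5 with no filter or a mean of at least 0.1 FPKM (Tnf) and with a pseudocount of 0.1 (Ripk1), to 6 with voom at the lower filter (Tnf and Ripk3) and by the adjusted p alone, and to 1 with a mean of at least 2 FPKM, since Tnfrsf1b, Fas and Casp8 were then not tested. For the other changes the cause was not tested.

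Same-numbered libraries deviated in opposite directions, with correlations of -0.28 at 3 months, -0.53 at 18 months and -0.29 for 4xIOP, so the numbers were not taken as pairs. A replicate block gave 1 called member with age, 0 for 3mo IOP, 0 for 18mo IOP, 1 between 18mo IOP and 3mo IOP and 4 for 4xIOP, the call lost being that of Tnfrsf1a (limma adjusted p = 0.107 with age and 0.126 between 18mo IOP and 3mo IOP). A crossed replicate block, chosen after seeing the data, gave 3, 3, 3, 2 and 4. Leaving out 1 library gave between 0 and 2 called members for 3mo IOP, 0 and 2 for 18mo IOP, 1 and 3 between 18mo IOP and 3mo IOP, and 4 and 5 for 4xIOP. These fits assume that a lone library varies like the other groups.

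Signs changed in values that did not pass the test. With age, Tnfrsf12a became 0.67 with the length trend removed and lay between -0.73 and 0.30 without 1 library, and Casp8 between -0.059 and 0.51. Between 18mo IOP and 3mo IOP, Tnfrsf12a lay between -0.080 and 1.08. For the interaction, Tnf became -0.073 with a pseudocount of 0.1, -1.88 with voom and -1.87 with voom at the lower filter, and Tnfrsf1b became -0.15 with both voom fits. With a pseudocount of 1, Fas became 0.028 and Ripk1 0.0069, and Ripk1 became 0.012 with median-of-ratios and 0.0022 with quantile scaling. Without 1 library the interaction lay between -0.59 and 0.089 for Tnfrsf1a, -0.63 and 0.26 for Fas, -0.15 and 0.45 for Casp8, and -0.19 and 0.13 for Ripk1. Depth limits Tnf, Ripk3 and Mlkl most, with 4 reads or fewer over each control group of young animals.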
